A study of Homo sapiens with 2 samples.

Results

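The transcripts of 10 genes that respond to the co-activator YAP or to signals of the TGF-beta family were followed in PC3 cells after knockdown of SUB1, a nuclear protein that binds single-stranded DNA and acts as a transcriptional co-activator. The genes were CTGF (now CCN2), CYR61 (now CCN1), ANKRD1, AMOTL2, AJUBA (JUB on the array), TGFBI, SMAD7, SMAD6, ID1 and ID3. Every probe whose gene name on the array was one of these was taken, which gave 12 of 41000 probes. PC3 is an established cell line from a prostate cancer metastasis. The cells received Non-T (non-targeting) siRNA, SUB1 siRNA 1 or SUB1 siRNA 2, were transfected again 24 h later, and were harvested 72 h after the first transfection. Each SUB1 siRNA was hybridised on 1 dual-colour Agilent array, with the knockdown RNA in Cy5 and Non-T RNA in Cy3, and it is not given in the sources used here whether both arrays carried the same Non-T extract. All groups share the line, the transfection and the medium. RNA came from whole cultures, so that a response in fewer cells and a smaller response in every cell cannot be told apart.

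In the Hippo pathway, the LATS kinases hold YAP and its relative TAZ (WWTR1) in the cytoplasm. When the kinases are quiet, YAP and TAZ enter the nucleus and switch on genes with the TEAD factors, and CTGF, CYR61 and ANKRD1 are the readouts most often used for this. Ligands of the TGF-beta branch signal through SMAD2 and SMAD3 and raise TGFBI and SMAD7, whereas BMP ligands signal through SMAD1, SMAD5 and SMAD9 and raise ID1, ID3 and SMAD6. The pathways meet on shared targets such as CTGF.

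The promoters are shown because TEAD factors bind a short motif that marks the YAP targets. RefSeq promoters of GRCh38.p14, 250 bases before to 50 after an annotated gene start, matched 9 of the 10 genes and gave 13 promoters, with no entry for CYR61. The TEAD core GGAATG, searched on both strands, was in the promoters of 5 of the genes, and 14.03% of all 35116 promoters in the table hold it. In the stretches that follow, all read 5′ to 3′ along the gene, the capitals mark the TEAD core or its reverse complement.
CTGF, chr6:131951524-131951553, minus strand: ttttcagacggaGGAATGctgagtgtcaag
CTGF, chr6:131951454-131951483, minus strand: gtggggaGGAATGcgaGGAATGtccctgtt
ANKRD1, chr10:90921290-90921319, minus strand: atcaccaccaaaGGAATGgccctctcacat
ANKRD1, chr10:90921198-90921227, minus strand: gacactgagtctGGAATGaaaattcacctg
AMOTL2, chr3:134374499-134374528, minus strand: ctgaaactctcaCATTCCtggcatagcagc
AJUBA, chr14:22976884-22976913, minus strand: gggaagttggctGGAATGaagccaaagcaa
ID1, chr20:31605276-31605305, plus strand: gctccgcactctCATTCCacgttcttaact

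The CTGF promoter held 3 matches, starting at positions -169, -104 and -95 from the gene start, and 0.128% of all promoters hold at least 3. ANKRD1 held 2 matches, and 1.37% of all promoters hold at least 2. AMOTL2, AJUBA and ID1 held 1 each, the last of them at the gene start itself. No match was found in the promoters of TGFBI, SMAD7, SMAD6 or ID3. The SMAD motif CAGAC, on both strands, is too common to set genes apart, since 45.3% of all promoters hold it; it was found for CTGF, ANKRD1, AMOTL2, AJUBA, SMAD7 and ID3. The BMP-SMAD motif GGCGCC was found for AMOTL2 and TGFBI and in 19.2% of all promoters. A match is a description of these letters and says nothing of binding.

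SUB1 itself had 4 probes, and the log2 ratio of knockdown over Non-T signal was between -3.75 and -1.81 for them with siRNA 1. With siRNA 2 it was between -3.498 and -1.57. Probes well above background in Cy3, Cy5 or both, on each of the arrays, were kept, and these stood for 19218 genes, each represented by its brightest probe. No spot was saturated. All members were spotted once. For probes spotted 10 times the median SD of the log2 ratio among spots was 0.070 and 0.068 on the siRNA 1 and siRNA 2 arrays in the upper tercile of intensity, and 0.10 and 0.096 in the lower tercile, an error within an array that leaves out differences between cultures. All 5 epithelial markers (KRT8, KRT18, KRT19, EPCAM, CDH1) were well above background in Non-T siRNA-treated cells. CDH1 was dim, with a Cy3 intensity of 141 on the siRNA 1 array, and EPCAM, the next dimmest, had 862. Of the markers of other cell types, 3 of 5 fibroblast, 2 of 4 leukocyte and 1 of 4 endothelial genes passed the same limit, all with intensities at or under 164 on the siRNA 1 array, where the median negative control spot had 86.5. COL1A1, DCN, LUM, CD3E, CD14 and PECAM1, the genes that did, had log2 ratios between -0.19 and 0.66 with siRNA 1 and between -0.37 and 0.45 with siRNA 2, while the defining markers PTPRC, CDH5, COL1A2 and COL3A1 were not well above background in Non-T cells. LUM had 0.47 with siRNA 1 and -0.23 with siRNA 2, and its part in the results was not tested.

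Of the 10 genes, 9 passed the filter, with 11 of the 12 probes. None of the 9 was at least 2-fold changed with either siRNA, where 0.817% of all genes were so with siRNA 1 and 1.68% with siRNA 2, and 2.31% with at least 1 of them. The clearest pattern lay between the siRNAs. TGFBI was higher than in Non-T siRNA-treated cells with siRNA 1 and lower with siRNA 2, whereas ID1 and ID3 were lower with siRNA 1 and higher with siRNA 2. For 3 of the 9 genes (33.3%) the log2 ratios of the siRNAs were at least 1 apart, compared with 1.26% of all genes. Because the members were chosen with earlier results of these data known, this share only describes them. CYR61 was lower with both siRNAs. With 1 array for each siRNA, no difference between them could be tested.

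**Figure D1:**
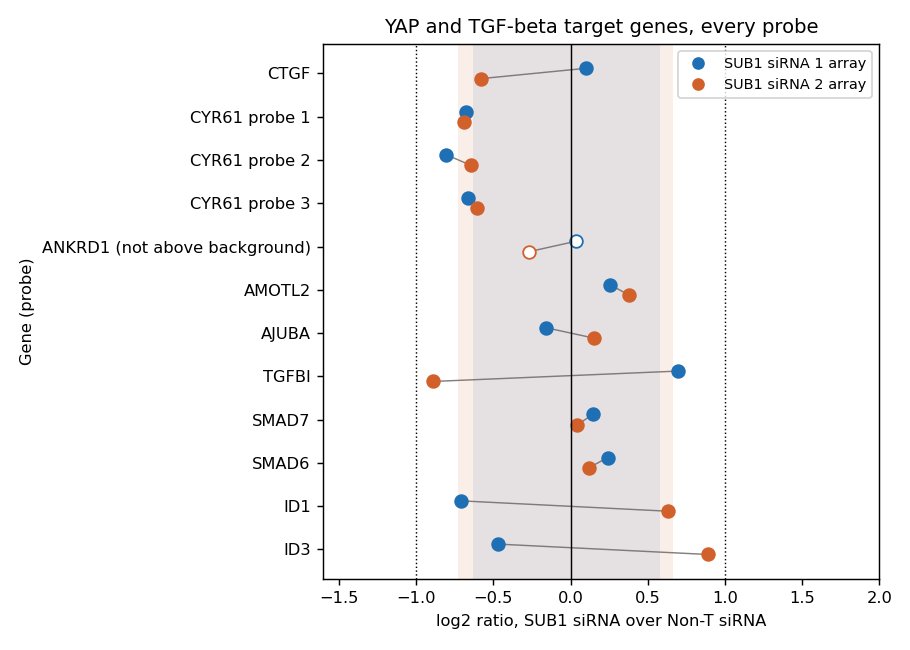
Log2 ratio of knockdown over Non-T signal (x axis) for each of the 12 probes (y axis), with a point for each array, open where the probe was not above background; shading spans the central 95% of all genes on each array and dotted lines mark 2-fold. The points of TGFBI, ID1 and ID3 lie on opposite sides of 0, and the 3 probes of CYR61 lie between -0.80 and -0.61 on both arrays.

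CYR61 encodes a secreted matrix protein that binds integrins and is a direct YAP target. Its brightest probe (NM_001554, hg18 chr1:85821541-85821600, plus strand) had a normalised signal of 8439 in Non-T and 4835 in SUB1 siRNA 1-treated cells. On the other array it had 7936 in Non-T and 5066 in SUB1 siRNA 2-treated cells. Both knockdown signals were thus below both Non-T signals. The log2 ratio was -0.80 with siRNA 1 (1.75-fold lower) and -0.65 with siRNA 2 (1.57-fold lower). The other probes of CYR61 lie elsewhere on the transcript, at hg18 chr1:85821032-85821091 and chr1:85821759-85821818, and gave -0.67 and -0.68 with siRNA 1 and -0.61 and -0.69 with siRNA 2. Over the 3 probes the mean was -0.72 ± 0.076 (SD) with siRNA 1 and -0.65 ± 0.041 with siRNA 2. Probes of a gene are not replicate cultures.

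CTGF, the closest relative of CYR61 and likewise a secreted matrix protein, did not follow it with both siRNAs. Its probe (NM_001901, hg18 chr6:132311823-132311882, minus strand) had a signal of 440.0 in Non-T and 472 in siRNA 1-treated cells. On the siRNA 2 array the signals were 437 in Non-T and 292 in knockdown cells. Only the cells with siRNA 2 stood below the rest. The log2 ratio was 0.10 with siRNA 1, near the spread among spots, and -0.58 with siRNA 2 (1.498-fold lower).

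ANKRD1, which encodes a nuclear repeat protein of muscle and a YAP target in many epithelial lines, was not well above background in either channel on either array, and no ratio is given for it. AMOTL2 encodes a junction-associated scaffold that binds YAP and is itself a YAP target. Its probe (NM_016201, hg18 chr3:135557432-135557491, minus strand) had 2637 in Non-T and 3144 in siRNA 1-treated cells. It had 2726 in Non-T and 3541 in siRNA 2-treated cells. Both knockdown signals were above both Non-T signals, with log2 ratios of 0.25 and 0.38.

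AJUBA encodes a LIM-domain protein that binds and restrains the LATS kinases at cell junctions. Its probe (NM_032876, hg18 chr14:22511087-22511146, minus strand) had 1388 in Non-T and 1246 in siRNA 1-treated cells, and 1531 and 1704 on the siRNA 2 array. The Non-T signals differed by 0.14 on the log2 scale between the arrays. This is close to the log2 ratios of -0.16 and 0.15, of which the first turned to 0.075 when arrays were centred on the median in place of loess.

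TGFBI encodes a secreted matrix protein named for its induction by TGF-beta. Its probe (NM_000358, hg18 chr5:135427242-135427301, plus strand) had a signal of 590.0 in Non-T and 955 in siRNA 1-treated cells. On the siRNA 2 array it had 600 in Non-T and 324 in knockdown cells. The Non-T signals lay within 0.024 of each other on the log2 scale, and the knockdown signals lay on either side of them. The log2 ratio was 0.70 with siRNA 1 (1.62-fold higher) and -0.89 with siRNA 2 (1.85-fold lower). The difference of siRNA 2 minus siRNA 1 was -1.58 and ranked 38 of 19218 genes by its absolute size. No other probe of TGFBI was on the array.

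SMAD7 and SMAD6 encode the inhibitory SMADs, which block receptors of the family and are themselves induced by it. Both were dim. SMAD7 (NM_005904, hg18 chr18:44700780-44700839, minus strand) had signals of 106 in Non-T and 118 in siRNA 1-treated cells, and of 105 and 108 on the siRNA 2 array. SMAD6 (NM_005585, annotated on hg18 from chr15:64795864-64860421, plus strand, a span longer than a probe) had 111 and 131, and 96.7 and 105. The log2 ratios of SMAD7 were 0.15 and 0.044, the second of which was -0.025 in the authors' log2 ratios, and those of SMAD6 were 0.24 and 0.12. Only the ratio of SMAD6 with siRNA 1 was beyond 2 SDs among spots of dim probes. Its size is close to that of the gap between the Non-T signals of SMAD6, a log2 difference of -0.20 (siRNA 2 array minus siRNA 1 array). For the other ratios, a difference from Non-T cells was not detectable at this brightness.

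ID1 and ID3 encode inhibitors of helix-loop-helix transcription factors, which hold back differentiation and are classic BMP targets. ID1 (NM_002165, hg18 chr20:29657819-29657878, plus strand) had a signal of 22621 in Non-T and 13831 in siRNA 1-treated cells. On the siRNA 2 array it had 20918 in Non-T and 32424 in knockdown cells. Its knockdown signals lay below both Non-T signals with siRNA 1 and above both with siRNA 2. The log2 ratios were -0.71 (1.64-fold lower) and 0.63 (1.55-fold higher). ID3 (NM_002167, hg18 chr1:23758253-23758312, minus strand) had 839 in Non-T and 606 in siRNA 1-treated cells, and 934 and 1729 on the siRNA 2 array. Here too the siRNA 1 signal lay below both Non-T signals and the siRNA 2 signal above both. The log2 ratios were -0.47 (1.38-fold lower) and 0.89 (1.85-fold higher). The difference of siRNA 2 minus siRNA 1 was 1.34 for ID1 and 1.36 for ID3, which ranked 78 and 74 of 19218 genes by absolute size.

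**Figure D2:**
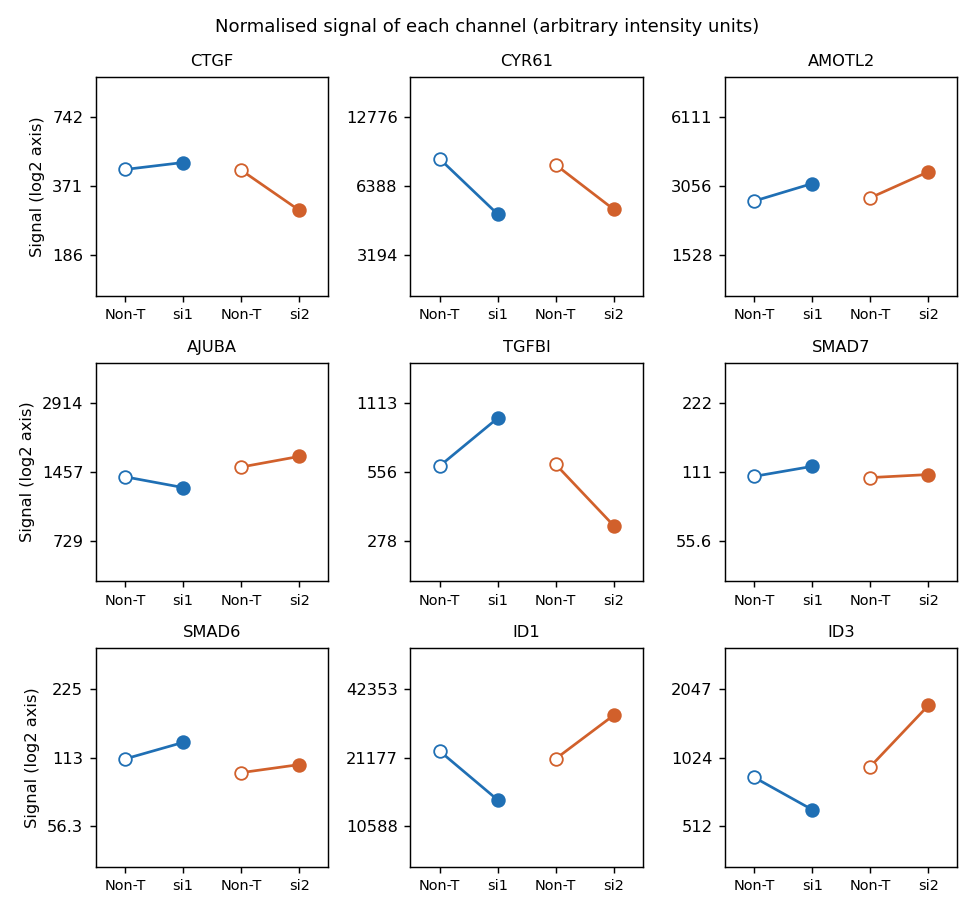
Normalised signal of each channel (y axis, log2 scale, arbitrary intensity units) for the 9 genes past the filter, with open points for Non-T and filled points for SUB1 siRNA 1 (blue) or siRNA 2 (orange); a line joins the channels of an array. The Non-T signals of TGFBI, 590.0 and 600, lie side by side while its knockdown signals are 955 and 324.

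The differences between the siRNAs were in the knockdown channel. For TGFBI the Cy5 signal was lower on the siRNA 2 array by a log2 difference of -1.56 and the Cy3 signal differed by 0.024. For ID1 the Cy5 difference was 1.23 and the Cy3 difference -0.11. For ID3 the values were 1.51 and 0.15, and for CTGF -0.69 and -0.0094. Across all genes the SD of the Cy3 difference was 0.12 and that of the Cy5 difference 0.31. The dye orientation was the same on both arrays.

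**Figure D3:**
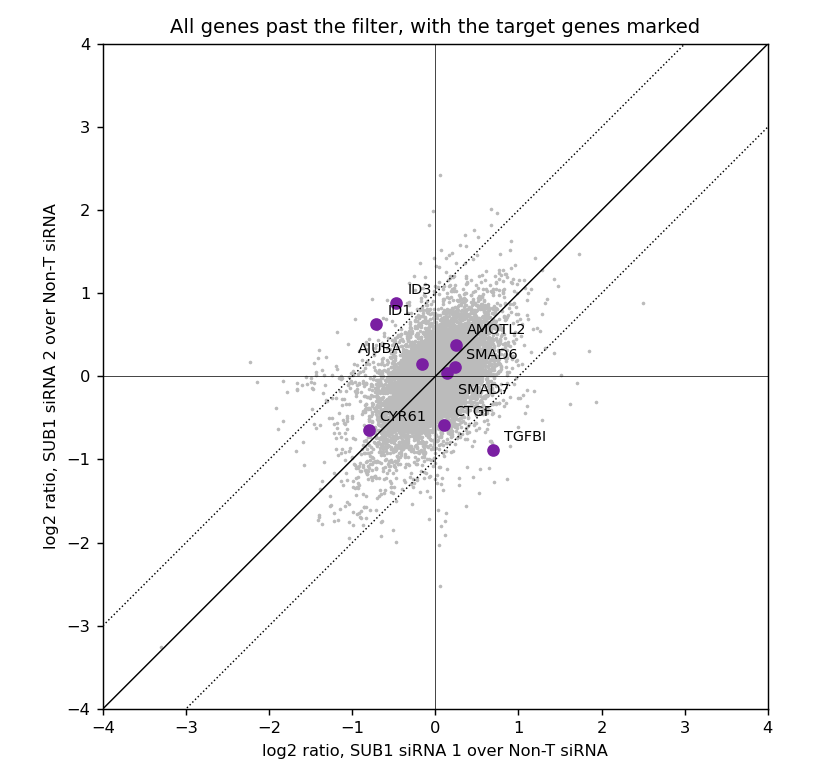
Log2 ratio of knockdown over Non-T signal with siRNA 1 (x axis) and siRNA 2 (y axis) for 19218 genes (grey) and the 9 members (purple); the solid line marks equal ratios and the dotted lines ratios 1 apart. ID1 and ID3 lie above the upper dotted line and TGFBI below the lower one.

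In the mean of both siRNAs, none of the 9 genes passed limma's moderated test against 0 at a Benjamini-Hochberg adjusted p of 0.05, where 0.0052% of all genes did (SUB1 alone). Of the 9, 2 had an unadjusted p under 0.05, where 20.9% of all genes did. These were CYR61, with a mean log2 ratio of -0.73 (SE 0.10, adjusted p 0.112 in limma), and AMOTL2, with 0.32 (SE 0.099, adjusted p 0.193). For the other 7 genes the adjusted p lay between 0.365 and 0.997. The median log2 ratio of the 9 genes was 0.10 with siRNA 1 and 0.12 with siRNA 2, compared with 0.024 and 0.024 over all genes. Dyes were not exchanged, and in a ratio that both arrays share, such as that of CYR61, unequal dye uptake and the knockdown cannot be told apart. Nothing in the sources says that the arrays came from separate cultures. The p-values rest on the spread between the arrays, which the moderated test draws, for each gene, towards that of all genes.

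The other genes of both pathways were taken from 9 lists with 96 genes, of which 78 passed the filter. None passed the limma test, and 23 had an unadjusted p under 0.05, where 20.9% of all genes did. With siRNA 1, 1 gene was at least 2-fold higher and 2 were lower, and with siRNA 2, 2 were higher and 0 lower, where 0.208%, 0.609%, 0.614% and 1.07% of all genes were. For 3 of the 78 genes (3.85%) the log2 ratios of the siRNAs were at least 1 apart, where 1.26% of all genes were. The lists too were chosen with earlier results of these data known.

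Of the 16 other YAP and TAZ targets past the filter, 7 were higher and 9 lower with siRNA 1, and 8 were higher and 8 lower with siRNA 2, with medians of -0.069 and 0.0062. Of all genes, 54.1% were higher with siRNA 1 and 53.6% with siRNA 2. IGFBP3, which binds insulin-like growth factors, had the widest gap, at -1.405 with siRNA 1 and 0.32 with siRNA 2. Its second probe gave -0.94 and -0.11. The receptor tyrosine kinase gene AXL was lower with both, at -0.66 and -0.54. LATS2, both a target of YAP and a kinase that restrains it, was higher with both, at 0.67 and 0.54, and its second probe gave 0.39 and 0.40.

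Among 9 Hippo kinases and scaffolds past the filter, the medians were 0.14 and -0.020. FRMD6, a scaffold upstream of the kinases, had 0.49 and 0.50, and 0.050 and 0.15 with its second probe. All 7 genes for YAP, TAZ, the TEADs and VGLL4 passed the filter, with medians of 0.11 with siRNA 1 and -0.17 with siRNA 2. WWTR1, which encodes TAZ, had 0.20 and -0.53. Its 3 other probes were all lower with siRNA 2, from -0.70 to -0.14, and from -0.43 to 0.26 with siRNA 1. TEAD1 had 0.11 and -0.42, and 0.038 and -0.11 with its second probe.

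Of 11 ligands, 7 passed the filter, and BMP2, BMP4, BMP6 and BMP7 did not. Their medians were -0.17 and -0.15. GDF15, a distant and stress-responsive member of the family, had 0.47 with siRNA 1 and 1.76 with siRNA 2 (3.38-fold higher). INHBA, which encodes the activin A subunit, had -0.24 and -0.74. Of 11 receptors 8 passed, with medians of 0.12 and 0.067. TGFBR2, the type II TGF-beta receptor, had 0.68 and 0.11, and 0.15 and -0.17 with its second probe, and the co-receptor ENG had -0.19 and -0.30.

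All 8 signalling SMADs and cofactors passed, with medians of -0.066 and -0.058. The widest means were those of SMAD1, at -0.23 and -0.20, and of ZFYVE9, an anchor that presents SMADs to the receptor, at 0.079 and 0.34. Another probe of SMAD1 gave 0.0042 and -0.089, and another of ZFYVE9 gave -0.031 and 0.14. Of the inhibitors 9 of 11 passed, with medians of 0.22 and 0.20. PMEPA1, a TGF-beta-induced inhibitor of SMAD activation, had 1.11 (2.15-fold higher) and 0.74, and 1.41 and 0.20 with its second probe. FST, which encodes the activin-binding protein follistatin, had -1.24 (2.36-fold lower) and -0.26. BAMBI, a decoy receptor and BMP target, was higher with both, at 0.55 and 0.86.

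All 13 other TGF-beta targets passed, with medians of 0.21 and 0.24. JUNB, an AP-1 subunit, had 0.19 with siRNA 1 and 1.48 with siRNA 2, whereas its second probe gave -0.16 and 0.37. Of 8 other BMP targets and ID genes 6 passed, with medians of -0.14 and -0.075. ID2 was lower with siRNA 1 and higher with siRNA 2 like ID1 and ID3, at -0.14 and 0.53, and at -0.22 and 0.22 with its second probe. ID4 had -0.27 and -0.11 and so was lower on both arrays.

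**Figure D4:**
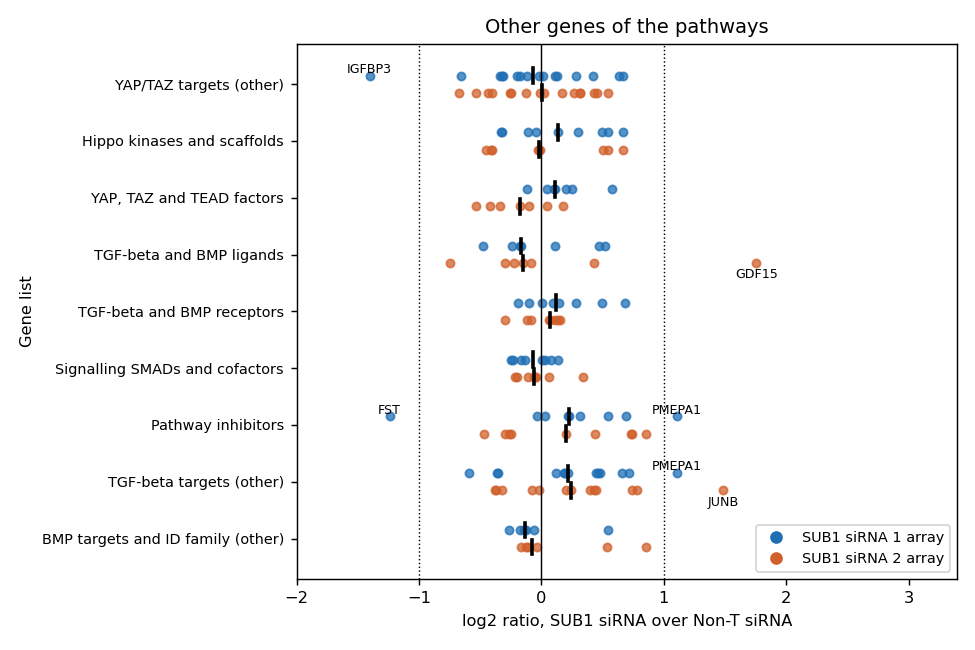
Log2 ratio of knockdown over Non-T signal (x axis) for each gene past the filter in the 9 lists (y axis), with points for siRNA 1 (blue) and siRNA 2 (orange), black bars for medians and dotted lines at 2-fold. Genes past 2-fold are named, and every list median lies between -0.17 and 0.24.

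Under 10 other ways of processing the arrays, 3 members again had siRNA ratios at least 1 apart in each. These members, TGFBI, ID1 and ID3, have 1 probe each, spotted once. Settings that changed only the outlier spots, the filter or the handling of several probes therefore could not alter their values. Only the settings that changed the signals, the background correction or the normalisation could. TGFBI stayed higher with siRNA 1, from 0.70 to 0.91, and lower with siRNA 2, from -1.02 to -0.71. ID1 stayed lower with siRNA 1, from -0.85 to -0.33, and higher with siRNA 2, from 0.47 to 1.07. ID3 ranged from -0.47 to -0.26 and from 0.88 to 1.13. With siRNA 2, ID1 and ID3 thus passed 2-fold after median centring, and TGFBI and ID3 did so in the scanner software's processed signals. CYR61 was lower throughout, between -0.83 and -0.50 with siRNA 1 and between -0.69 and -0.32 with siRNA 2.

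**Figure D5:**
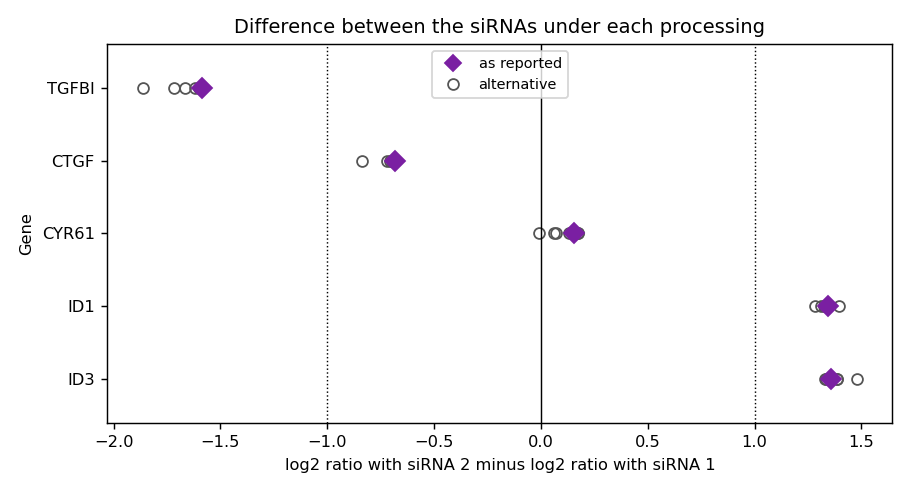
Log2 ratio with siRNA 2 minus that with siRNA 1 (x axis) for 5 genes (y axis), as reported (diamond) and under each alternative processing (circles); dotted lines mark a difference of 1. TGFBI lies between -1.86 and -1.58, ID1 between 1.28 and 1.40, and ID3 between 1.33 and 1.48. For these genes and CTGF, circles of settings that changed only outlier spots, the filter or the handling of several probes repeat the reported value.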

How the data were processed

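The authors scanned the arrays and deposited Agilent Feature Extraction 9.5.1.1 output, with the intensity of each spot and its local background in Cy3 and Cy5; design coordinates are on hg18 per the file headers. They also deposited log2 ratios normalised by loess with the R package agilp, used as an alternative only. Those values correlated across probes with loess-normalised log2 ratios of Cy5 over Cy3 (r 0.958 and 0.970), had medians of -0.0055 and -0.0069, and so run from Non-T to knockdown. Feature Extraction's log ratios and p-values were not used.

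Mean intensities were corrected with normexp (offset 50), and control spots were then dropped. Log2 ratios were normalised by loess (span 0.3) within each array, in limma 3.58.1 under R 4.3.3. Spots flagged as outliers were then left out (112 and 100), and repeated spots were averaged. Probes were kept where, in Cy3, Cy5 or both, at least 0.5 of the spots exceeded background clearly on each array. Signals of single channels were set on a common scale by Aquantile normalisation. Of 19218 genes, 13129 were named through RefSeq. Changed meant at least 2-fold on an array, the rule in the paper's methods. Over both siRNAs, lmFit with an intercept and eBayes tested the mean ratio against 0 with Benjamini-Hochberg adjustment; this leaves out the spread of the control. The fit was tried on ratios simulated under limma's own model, and the processing on these arrays with the Cy5 signal of some spots raised. The outcome is not given here, and neither trial bears on differences between cultures. The number of arrays limits the precision. The members and lists were chosen with earlier results of these data known. Genes outside the members were named where at least 2-fold changed with a siRNA or among the 2 largest mean ratios of a list; ID4 and the BMP ligands were added after their values were seen. One marker gene is not reported here.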

Additional observations from a re-analysis of the deposited data

Results flagged for a closer look

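In 3 genes the siRNAs gave log2 ratios of opposite sign, each beyond 2 times the median SD among spots over all probes spotted 10 times (limits of 0.156 and 0.148 on the siRNA 1 and siRNA 2 arrays). AJUBA, at -0.156 and 0.154, lay just inside the first limit, and would pass the smaller limits of bright probes alone. Without any limit, 5 of the 9 genes (55.6%) had ratios of opposite sign, where 31.6% of all genes did. The share of all genes past the limits was not counted, so the 3 genes are only described. Subtracting the siRNA 1 from the siRNA 2 ratio gave -1.58 for TGFBI, 1.34 for ID1 and 1.36 for ID3. These differences were not tested, because there was 1 array for each siRNA.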

How the results depend on the processing

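No paired analysis was possible because, beyond the pairing within an array that every log2 ratio already holds, each siRNA has 1 array and no replicate block can be fitted. Leaving out 1 array leaves the ratio of the other, with no test. The mean log2 ratio of CTGF, -0.24, then becomes 0.10 without the siRNA 2 array or -0.58 without the siRNA 1 array, and that of ID3, 0.21, becomes -0.47 or 0.89. The CYR61 probe at chr1:85821759-85821818 taken on its own turned the difference between the siRNAs from 0.16 to -0.0092.

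Without background correction, with median intensities of the spots, after median centring, from the processed signals of Feature Extraction and from the authors' log2 ratios, 0 genes passed the limma test (4081, 4022, 5707, 3890 and 4141 at an unadjusted p under 0.05), and 3 probes passed with every probe counted on its own; the cause was not tested. CYR61 had an adjusted p from 0.0654 to 0.177 over its alternatives. Median centring moved the median of all genes to 0.13 and 0.12 and gave 137 genes higher and 56 lower with siRNA 1 and 266 and 101 with siRNA 2, in place of 40, 117, 118 and 205; the share higher became 71.0% and 72.5% in place of 25.5% and 36.5%. It put 2 members, ID1 (1.07) and ID3 (1.13), past 2-fold with siRNA 2. The processed signals gave 778 and 297 genes with siRNA 1 and 997 and 471 with siRNA 2 (72.4% and 67.9% higher), 1173 genes with siRNA ratios at least 1 apart in place of 242, and 2 members past 2-fold, ID3 (1.03) and TGFBI (-1.02). The authors' log2 ratios gave 36.7% and 47.4% higher. The members' median moved to 0.21 with siRNA 2 under the processed signals, and with siRNA 1 to 0.021 with the authors' ratios and to -0.16 with every probe counted. The other 92 counts and medians recomputed stayed within 1.5 times or 1 SD among spots. Of the values of single members, 351 stayed on their side of the test or within that spread, 50 moved beyond it, and the 3 of CTGF, ID3 and CYR61 given here were reversed. Means near 0 in which the siRNAs nearly cancel also crossed it: after median centring that of TGFBI went from -0.097 to 0.098 and that of ID1 from -0.039 to 0.37. The means of AJUBA and SMAD7, the AJUBA ratio with siRNA 1 and the SMAD7 ratio with siRNA 2 crossed 0 under at least 1 alternative too.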
